A study of Saccharomyces cerevisiae with 8 samples.

Results

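Subtelomeric peaks were defined as the nuclear ATAC-seq peaks of budding yeast whose summit lay within 20 kb of either end of one of the 16 chromosomes, in coordinates of the sacCer3 genome. ATAC-seq marks accessible DNA by letting a transposase insert sequencing adapters where chromatin is open, and a summit is the position of highest fragment coverage in a peak. Of 8559 nuclear peaks in 8 lists, 546 met this rule. A library held 58 to 77 of them among its 988 to 1284 nuclear peaks. The 32 end zones covered 640 kb, or 5.30% of the nuclear genome. Position was the only criterion, and peak strength was not used.

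The libraries came from 4 strains of *Saccharomyces cerevisiae* BY4741, with 2 independent clones each. The strains carried *HPRT1R*, the human *HPRT1* locus with its base order reversed, or *HPRT1* itself. Each locus was held either on a *LEU2*-marked yeast vector as an episome, with growth in SC-Leu, or integrated on chromosome XI, with growth in YPD. All cultures were grown at 30 °C and tagmented after 6 h of regrowth to mid-log phase. Context and medium changed together and cannot be told apart. No strain without a locus was analysed here. Depth at the summit, as the fragment count that the deposited fold enrichment and p-value imply together, could be recovered for 99.3% to 99.6% of nuclear peaks, and its median per library was 26 to 32 in subtelomeric peaks and 23 to 26 in interior peaks.

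Yeast chromosomes end in irregular C- and A-rich repeats on the strand that reads from the end inwards. Next to these lies an X element, present at nearly every end, and at some ends one or more Y′ elements between the X element and the terminal repeats. The Y′ element carries a helicase gene of the *YRF1* family. Silencing by the Sir proteins spreads from the terminal repeats and X elements, and the general regulatory factors Reb1 and Tbf1 bind parts of X and Y′ that counter this spread. Further in lie gene families such as *PAU*, *COS* and *HXT*, many of them expressed only under particular conditions. In the annotation used here, 17 ends carried a Y′ element and 15 carried an X element only. The annotated telomeric region, which takes in X, Y′ and terminal repeats as one feature, spanned 5505 to 13897 bp at the first kind of end and 431 to 1098 bp at the second.

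Of the 149 peaks at ends without Y′, 114 (76.5%) lay in the annotated telomeric region, which there holds the X element, and 3 windows of 151 bases around the median summit show its sequence. The other 35 lay further in, 13 of them at XIIIR and 7 each at IR and VIR. All are read from the chromosome end inwards, IVL and XVL denoting the left ends of chromosomes IV and XV (chrIV:478-628 and chrXV:443-593, plus strand) and IR the right end of chromosome I (chrI:229866-230016, minus strand). Capitals mark AACTTACCCTAC, the 12-letter word found in the most windows of this kind.
IVL: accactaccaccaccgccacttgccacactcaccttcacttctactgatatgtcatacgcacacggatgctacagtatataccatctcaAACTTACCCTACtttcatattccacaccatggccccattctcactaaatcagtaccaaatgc
XVL: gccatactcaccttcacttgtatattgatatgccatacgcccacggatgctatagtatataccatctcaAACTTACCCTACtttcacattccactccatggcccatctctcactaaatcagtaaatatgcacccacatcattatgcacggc
IR: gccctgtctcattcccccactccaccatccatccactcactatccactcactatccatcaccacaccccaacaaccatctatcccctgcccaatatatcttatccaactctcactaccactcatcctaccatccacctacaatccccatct
The word was picked from the windows themselves, and stood within them at 9 of 15 ends. It occurred 23 times in the nuclear genome on either strand, each time within 20 kb of an end, and in 0.0275% of all 151-base windows. In 12 of the 15 X-only telomeric regions it lay 323 to 331 bp from the inner boundary. It was not particular to these ends, being found at 11 of the 17 ends with Y′ as well. The window of IR, the weakest of the ends with a peak in every library, did not hold it.

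At the Y′ ends one kind of peak, by position, lay in the last stretch of the chromosome. Shown are 4 windows of 125 bases around the median summit, with short words found in them. Those of XVR, XIIL and VIIIL come from 3 of the 4 strongest places, and that of XIVL, only 30th of the 44 places found in every library, is shown because it holds the letters of both factors named next. They are read from the end inwards, from chrXV:1091167-1091291 (minus strand), chrXII:40-164, chrVIII:8-132 and chrXIV:52-176 (plus strand). Capitals mark TTACCCG, the letters that Reb1 recognises, and TTAGGG or its complement CCCTAA, the letters that Tbf1 recognises. The TTACCCG of XIVL is not the same site as that of XVR, XIIL and VIIIL, being followed by gatgttc in place of gctttct.
XVR: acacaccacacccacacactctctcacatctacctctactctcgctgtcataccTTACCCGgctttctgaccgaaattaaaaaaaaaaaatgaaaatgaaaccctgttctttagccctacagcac
XIIL: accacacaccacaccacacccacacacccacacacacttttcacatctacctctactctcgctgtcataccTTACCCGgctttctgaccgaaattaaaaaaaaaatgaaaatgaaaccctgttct
VIIIL: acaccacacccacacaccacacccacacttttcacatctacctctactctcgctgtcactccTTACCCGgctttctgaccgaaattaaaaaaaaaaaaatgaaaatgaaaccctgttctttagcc
XIVL: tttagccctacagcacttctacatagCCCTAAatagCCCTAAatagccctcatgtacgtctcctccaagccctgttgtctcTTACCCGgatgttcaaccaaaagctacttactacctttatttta
A second kind of Y′ peak lay at the inner edge of the element, and 2 windows of 101 bases at its median position show 2 forms of it, from chrVIII:557074-557174 (minus strand) and chrX:6802-6902 (plus strand). Capitals mark TATAAA.
VIIIR: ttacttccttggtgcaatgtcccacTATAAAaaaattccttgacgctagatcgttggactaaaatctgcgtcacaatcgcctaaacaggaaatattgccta
XL: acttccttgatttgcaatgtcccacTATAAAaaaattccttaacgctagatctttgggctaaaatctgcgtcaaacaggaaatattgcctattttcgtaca
The first form was found unaltered at 10 of the 17 Y′ ends, so reads lying wholly within it match several ends equally well. The second was found at XL and IXL alone, where the inner edge had a peak in 5 and 7 libraries, with mean fold enrichments of 3.56 and 3.07.

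Peaks were denser in the 20 kb zones than in the interior. The subtelomeric zones held 10.7 ± 1.10 peaks per 100 kb and the interior 8.76 ± 0.88 peaks per 100 kb (SD, n = 8 libraries). The log2 ratio of the densities was 0.28 ± 0.11 (SD, n = 8), above 0 in 8 of 8 libraries, with p = 0.00781 by an exact two-sided sign-flip test and 0.0117 after Benjamini-Hochberg adjustment over the 9 tests run. That p is the smallest 8 libraries can give, and it counts clones of a strain as independent. Over the 4 strains alone no p could fall below 0.125. The ratio depended on the zone, the threshold and what the zone was set against. With a zone of 30 kb the log2 ratio was -0.0038 (exact p = 0.984), and with one of 10 kb it was 1.07. Where −log10 q reached 5 it was 0.61, and where it reached 10 it was 1.79. Against the stretch from 20 to 40 kb in place of the whole interior it was 1.14 (exact p = 0.00781 in each of these 4).

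**Figure D1:**
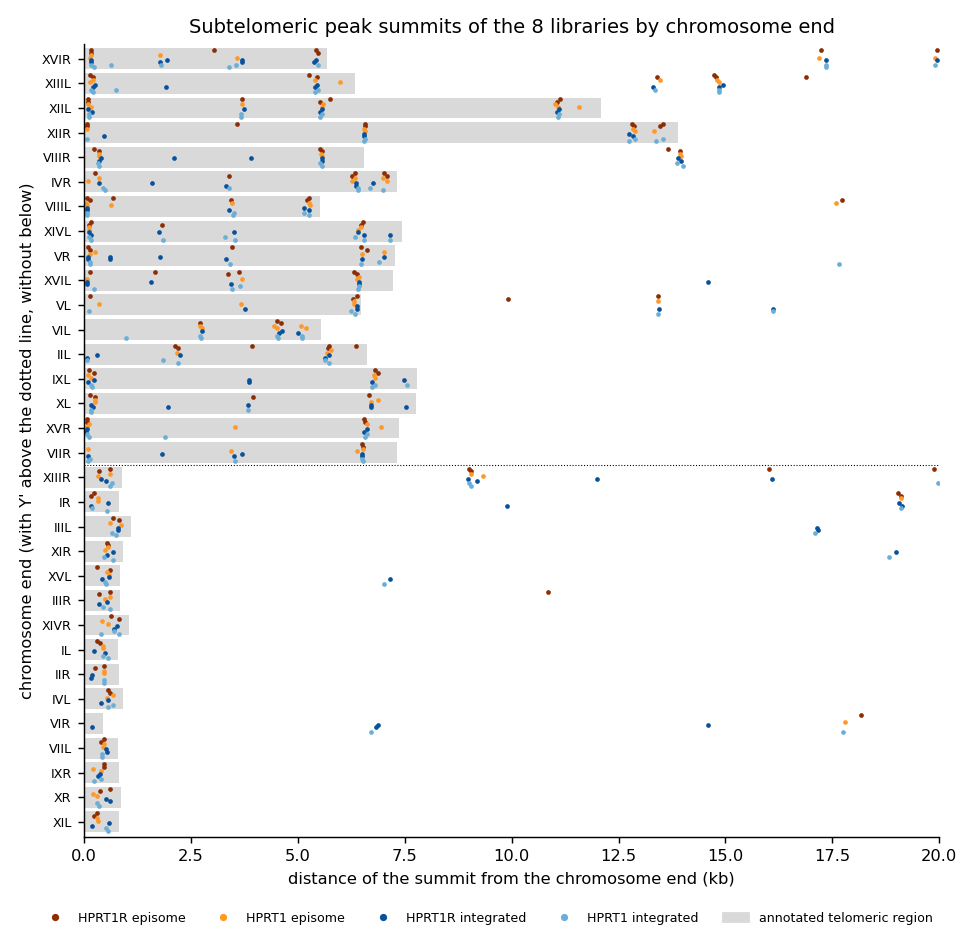
Distance from the chromosome end (kb, horizontal axis) of each of the 546 subtelomeric summits, with one row per chromosome end and one dot per summit, coloured by strain, and the annotated telomeric region as a gray bar. Dots fill the gray bars at nearly every end, and 18 of the 32 ends have no dot beyond the bar.

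Within the zones density fell steeply with distance. The outer 10 kb held 57.9 ± 5.77 peaks and the inner 10 kb held 10.4 ± 2.2 (SD, n = 8), a log2 ratio of 2.50 ± 0.26 that was above 0 in 8 of 8 libraries (exact sign-flip p = 0.00781, adjusted p = 0.0117). The first 1 kb alone held 25 to 31 peaks per library, at 25 to 29 of the 32 ends, a density of 88.7 ± 5.77 per 100 kb. From 1 to 8 kb the density was 12.6 ± 2.04 per 100 kb, with maxima at 3 to 4 kb and at 5 to 7 kb at ends with Y′. From 8 to 20 kb it was 3.03 ± 0.54 per 100 kb and from 20 to 40 kb 4.90 ± 0.90 per 100 kb, below the interior mean of 8.76. The plot of density by distance gives the value of each library.

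**Figure D2:**
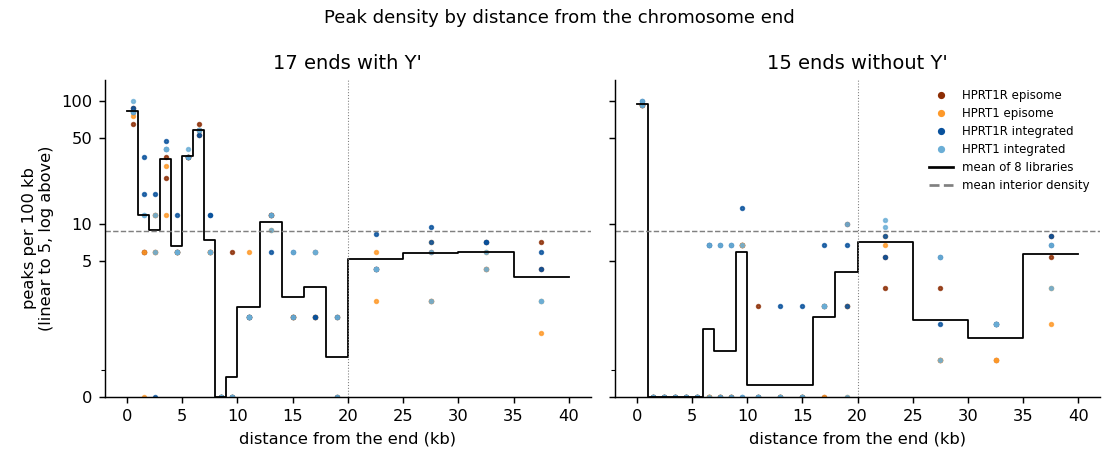
Peak density (peaks per 100 kb, linear up to 5 and logarithmic above) by distance from the chromosome end (kb) at the 17 ends with Y′ and the 15 ends without. Dots are libraries, the black line their mean and the dashed line the mean interior density of 8.76. Ends without Y′ show a single maximum in the first 1 kb, and ends with Y′ show further maxima at 3 to 4 kb and 5 to 7 kb.

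The gradient followed the annotated telomeric regions. These regions made up 12.7 kb at ends without Y′ and 128 kb at ends with Y′, and together held 470 of the 546 members (86.1%). Density was 113 ± 3.66 peaks per 100 kb in telomeric regions without Y′, 34.7 ± 3.80 in those with Y′ and 1.90 ± 0.48 in the remaining 499 kb of the zones (SD, n = 8). Relative to the interior of the same library these were 12.95 ± 1.22, 3.97 ± 0.36 and 0.215 ± 0.041 times as dense. The division was made after the positions had been seen, and it is given as a description. The rest of the zone lay below the interior in all 8 libraries, with 0.149 to 0.259 times its density.

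Most of the peaks that made the ends dense lay in repeated sequence. Of all bases, those starting a 36-mer found once in the nuclear genome made up 52.9% of the telomeric regions without Y′, 6.55% of those with Y′, 66.6% of the rest of the zone and 96.0% of the interior. Summits with fewer than 50% of such bases within 100 bp on either side made up 59.6%, 90.7%, 26.3% and 5.74% of the peaks in these 4 parts. With all peaks counted and the length taken as unique bases only, the subtelomeric to interior log2 ratio was 1.10 (exact sign-flip p = 0.00781). When both peaks and bases were confined to unique sequence, an alternative chosen after seeing the data, it became -0.83, with the same p. The part of repeated alignment in the peak density was not tested, and the number of Y′ copies in these clones was not measured here.

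**Figure D3:**
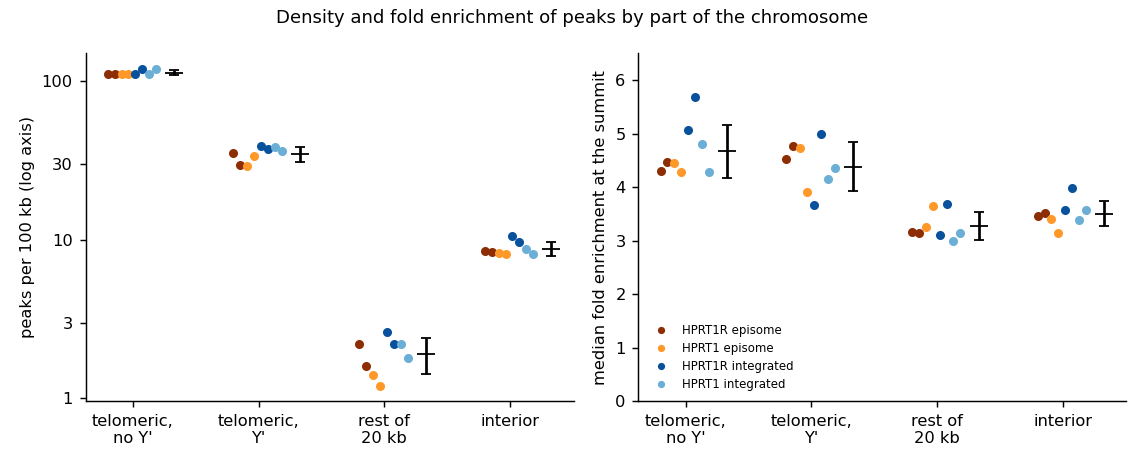
Peaks per 100 kb (left, log axis) and median fold enrichment at the summit (right) in 4 parts of the chromosomes. Dots are the 8 libraries, coloured by strain, and bars give the mean ± SD. Density is 113 and 34.7 per 100 kb in the telomeric regions without and with Y′, 1.90 in the rest of the 20 kb and 8.76 in the interior, and the rest of the 20 kb has fold enrichments that overlap those of the interior.

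Subtelomeric peaks were also stronger and wider than interior ones. The median fold enrichment of a library, the fragment coverage at the summit over the local background, averaged 4.31 ± 0.34 for subtelomeric and 3.51 ± 0.24 for interior peaks (SD, n = 8). The log2 ratio was 0.30 ± 0.06, above 0 in 8 of 8 libraries (exact sign-flip p = 0.00781, adjusted p = 0.0117). Median width averaged 399 ± 39.2 bp against 295 ± 11.7 bp, a log2 ratio of 0.43 ± 0.15 with the same p. Where −log10 q reached 10, the width ratio was 0.045 on the log2 scale (exact p = 0.266). The strength, too, belonged to the telomeric regions. Library medians of fold enrichment ran from 4.29 to 5.69 in regions without Y′, from 3.66 to 4.99 in regions with Y′ and from 2.99 to 3.68 in the rest of the zone, against 3.15 to 3.98 in the interior. Outside the telomeric regions the log2 ratio to the interior was -0.10 (exact p = 0.0859), an alternative added after seeing the data.

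Ends with a Y′ element were richer in peaks than ends without. They held 14.6 ± 1.44 peaks per 100 kb of zone, against 6.21 ± 0.80 at ends without Y′ (SD, n = 8). The log2 ratio was 1.24 ± 0.09, above 0 in 8 of 8 libraries (exact sign-flip p = 0.00781, adjusted p = 0.0117). This p is over libraries and does not measure the spread among ends, and the Y′ ends hold near-identical copies. Counted over the 8 libraries, Y′ ends held 17 to 33 peaks each and the others 8 to 21. The richest were XVIR with 33, XIIIL with 31 and XIIL with 30. At XVIR and XIIIL, 9 and 13 of these lay outside the telomeric region, while at XIIL, whose annotated region of 12085 bp was the second longest, all lay inside it. The fewest, 8 each, were found at IL, IIR, IVL, VIR, VIIL, IXR, XR and XIL. In 7 of these, VIR being the exception, every library had exactly 1 peak. No end was without a peak.

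The telomeric region of ends without Y′ had a peak in all 8 libraries at 14 of 15 ends. These regions held 114 peaks. Mean fold enrichment at these 14 ranged from 4.17 at IR to 5.31 at IXR, and with SDs over libraries of 0.44 to 1.62 the order of neighbouring ends was not resolved. At IXR the values were 3.92, 5.86, 4.44 and 4.29 in the episomal libraries and 5.30, 9.04, 4.81 and 4.86 in the integrated ones, so that a single integrated *HPRT1R* library stood above the rest and the groups overlapped. At IVL they were 4.53, 4.98, 4.30 and 4.79 in the episomal libraries and 6.70, 5.69, 5.33 and 5.57 in the integrated ones, without overlap. At IR they were 3.77, 5.13, 4.15 and 3.66 in the episomal libraries and 4.36, 5.19, 3.64 and 3.43 in the integrated ones, with full overlap. The summit lay a median of 355 bp from the inner boundary of the annotated region (quartiles 293 and 497 bp), and the peaks were wide, with a median of 487 bp. Their median fold enrichment exceeded that of 78.8% to 92.1% of the interior peaks of the same library. The exception was VIR, with the shortest annotated region (431 bp), where 1 library had a peak (fold enrichment 3.52).

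**Figure D4:**
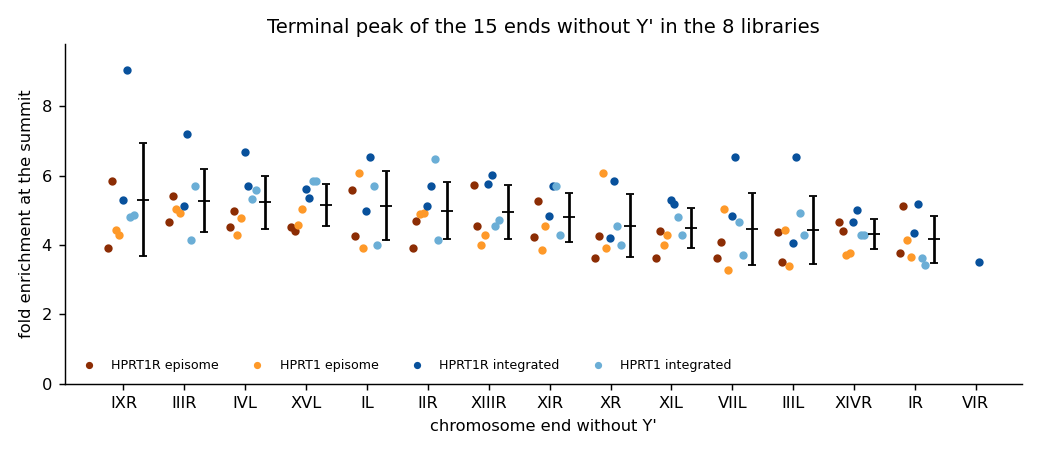
Fold enrichment at the summit of the terminal peak of the 15 ends without Y′, ordered by their mean. Dots are libraries coloured by strain and black bars the mean ± SD where all 8 libraries had a peak. Means run from 4.17 to 5.31 at 14 ends, and VIR has a single dot at 3.52.

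Peaks of the Y′ ends fell at a few fixed places of the element. To compare copies, each of the 356 summits in a Y′ telomeric region was placed on the left end of chromosome X, whose region of 7767 bp holds a Y′ helicase reading frame, *YJL225C*, on its minus strand from base 6130 to base 466. Alignments over 1 kb long had 92.4% to 99.96% identity to it, and 5 summits could not be placed. The distal 600 bp held 112 summits (31.5%), at 16 of 17 ends. The inner edge, between 6.3 and 7.1 kb and thus upstream of the helicase gene, held 114 (32.02%), at 15 ends. The adjoining stretch from 7.25 kb inwards, called the X element here, held 41 (11.5%). Between the distal part and the inner edge, 23 summits lay at 1.6 to 2.3 kb and 51 at 3.3 to 4.3 kb, in the part that holds the helicase reading frame. The limits of all these parts were set on the placed coordinate and are not annotated boundaries.

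These classes differed in strength and regularity. Median fold enrichment was 6.00 for the inner edge, 4.69 for the distal part and 4.29 for the X element, but 2.72 and 2.93 for the 2 middle places. The inner edge gave 13 to 15 peaks in every library and the distal part 12 to 16, whereas the middle places gave 1 to 8 and 3 to 8. No middle place had a peak in all 8 libraries at any end. Inner-edge peaks had a median width of 837 bp and distal peaks one of 305 bp. For 38 distal peaks the called interval began within 50 bp of the end of the reference, so their width was cut there. The local background chosen by the caller was over 1% above its genome-wide floor for 71.9% of inner-edge peaks, against 12.1% of interior peaks. No X-only telomeric peak had a raised background.

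**Figure D5:**
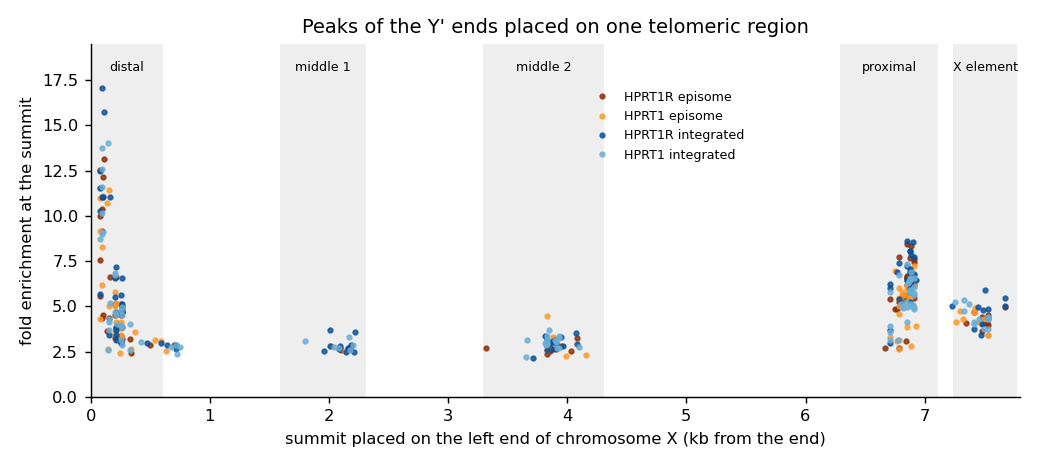
Fold enrichment at the summit of the peaks in Y′ telomeric regions (vertical axis) by their place on the left end of chromosome X (kb from the end). Dots are peaks, coloured by strain, and shaded bands the 5 parts named in the text. Values up to 17.1 lie in the distal band, those of the inner edge reach 8.63, and the 2 middle bands stay at or below 4.44.

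The 4 strongest subtelomeric places were distal. After overlapping peaks of all libraries had been merged, 109 regions held a subtelomeric summit, and 44 of these had a peak in all 8 libraries (40.4%), against 27.2% of all nuclear regions. The share was 14 of 15 for X-only telomeric regions, 26 of 69 for Y′ telomeric regions and 4 of 25 for the rest of the zone. Ranked by mean fold enrichment, the first was a place of 703 bp at XVR (chrXV:1090571-1091273), distal to *YRF1-8*. Its fold enrichment was 13.1, 12.2, 11.4 and 11.1 in the episomal libraries and 15.7, 17.1, 13.8 and 14.01 in the integrated ones. The integrated values were all higher. The second, at XIIL (chrXII:36-496), had 12.5, 9.97, 9.18 and 10.7 in the episomal libraries and 12.5, 11.1, 12.6 and 11.6 in the integrated ones, which overlapped. The third lay between the tandem genes *YRF1-4* and *YRF1-5* at XIIR (chrXII:1071197-1072055), 6.56 kb from the end, where the placement on the left end of chromosome X gave a distal edge. It had 9.15, 10.4, 11.5 and 8.28 in the episomal libraries and 11.5, 10.3, 10.1 and 8.72 in the integrated ones, also overlapping. The fourth was the end of VIIIL (chrVIII:34-782), with 7.54, 6.60, 11.0 and 6.18 in the episomal libraries and 11.1, 11.1, 9.09 and 9.01 in the integrated ones. Bases starting a unique 36-mer made up 1.28% of the place at XVR, 14.97% at XIIL, 2.91% at XIIR and 13.22% at VIIIL. At XIIR the median local background was 1.62 times its genome-wide floor. Whether the order or the values by context depend on how reads from near-identical copies were placed was not tested.

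The next 6 were all inner-edge places, upstream of a Y′ reading frame. They lay at XVIL (mean 7.28, beside *YRF1-7* and *PAU22*), IIL (6.68, *YBL111C* and *PAU9*), XIVL (6.63, *YRF1-6* and *COS1*), XVR (6.59, *YRF1-8*), VIIIR (6.56, *YHR218W* and *IMD2*) and VIL (6.44, *YFL064C* and *COS4*). Their SDs over the 8 libraries were 0.70 to 1.25, so that their order is not resolved. The share of bases starting a unique 36-mer ran from 2.34% at XVIL to 52.89% at VIL among these 6. *PAU* genes encode small cell wall mannoproteins and *COS* genes membrane proteins that take part in protein sorting to the vacuole.

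Within 3 kb of an end, 31 places at 30 ends had a peak in at least 4 libraries, 24 of them in all 8. Their mean fold enrichment ran from 2.86 at IVR to 13.5 at XVR. The 14 at ends without Y′ were found in every library. Those next to a *COS* gene averaged 5.24 at IVL, 4.99 at IIR, 4.56 at XR and 4.47 at VIIL. Those next to a *PAU* gene averaged 5.13 at IL, 4.95 at XIIIR and 4.49 at XIL. With *GEX1* and *GEX2*, genes for glutathione exchangers, as the next annotated gene, IIIL averaged 4.44 and XIR 4.80, and next to *PHO11*, an acid phosphatase gene, IR averaged 4.17. The other 4, nearest to reading frames without a standard name, averaged 5.31 at IXR, 5.28 at IIIR, 5.15 at XVL and 4.35 at XIVR. At ends with Y′, 10 places were found in every library, all of them distal and beside a Y′ reading frame, and only the first 3 exceeded every X-only mean by more than 1. They averaged 13.5 at XVR, 11.3 at XIIL, 8.94 at VIIIL, 5.88 at VIIIR, 5.37 at XIIIL, 4.49 at XIVL, 4.29 at VR, 4.22 at XVIR, 3.81 at XL and 3.76 at IXL. The remaining 7 were found in 4 to 6 libraries. Of these the distal ones averaged 3.82 at VIIR, 3.39 at XIIR, 3.08 at XVIL and 2.86 at IVR, and those in the middle of the element 3.32 at VIL, 3.01 at XVIR and 2.97 at IIL. The reference sequence held 0 bases of terminal repeat at VIIR, XIIR, XVIL and IVR. It held 17 to 187 at XVR, XIIL, VIIIL, VIIIR, XIIIL, XL and IXL, but 0 also at XIVL, VR and XVIR. Whether differences between distal places depend on where the reference ends was not tested.

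The distal places shared short words, though not all at the same position. Placed on the left end of chromosome X, the summit lay at 106 bp for XVR, 89 bp for XIIL and 98 bp for VIIIL, but at 211 bp for XIVL. The letters TTACCCG stood within 75 bases of the median summit, on either strand, at 15 of 18 distal Y′ places and at none of the other places in Y′ telomeric regions or at the 15 X-only places. All 151-base windows of the nuclear genome held them in 0.928% of cases and interior places in 7.22%. At the 10 Y′ ends with a distal peak in all 8 libraries, the summit lay 3 to 48 bp (median 23 bp) from the nearest match, as in the XVR, XIIL and VIIIL windows printed above. TTAGGG, on either strand, stood at 8 of the 18 distal places, against 3.46% of all windows, and TTTATGTTT, the core of the origin consensus, at 10 of the 18, against 0.509%. TATAAA was found at 11 of 15 inner-edge places, against 15.9% of all windows. The Y′ copies are near-identical, so that these are counts over related sequences. None of these motifs contains another. The Abf1 letters TCANNNNNACG stood at 3 of 69 Y′ places (4.35%), against 4.77% of all windows. The Rap1 letters CACCCANNCA stood at 4 of 69 (5.80%), against 0.349% of all windows and 2.89% of interior places, and 3 of these 4 were distal. Neither stood at an X-only place. A match describes letters and is not a measured binding site.

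Genes near the ends mostly lacked a promoter peak. A promoter peak was a summit from the coding start to 500 bp upstream. Of 236 protein-coding genes whose coding start lay within 20 kb of an end, 6.41 ± 1.14% had one in a library, against 15.1 ± 1.75% of interior genes (SD, n = 8). The difference was -8.73 ± 1.48 percentage points, below 0 in 8 of 8 libraries (exact sign-flip p = 0.00781, adjusted p = 0.0117). Where −log10 q reached 10, the difference was 0.525 percentage points (exact p = 0.0781). At least 1 library had a promoter peak for 30 of the 236, against 31% of all 6002 genes, which left 206 (87.3%) with none in any library, against 3933 of 5766 interior genes (68.2%). A promoter peak in all 8 libraries was found for 3 of the 236 (1.27%), against 4.08% of all genes, and these were the Y′ helicase genes *YRF1-3*, *YRF1-6* and *YRF1-7*. At least 6 libraries had one for 10 genes, against 9.3% of all genes, and 9 of these started inside an annotated telomeric region. The tenth was *COX14*, in 7 libraries.

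Among the families listed here, Y′ helicases were the only ones with a promoter peak at a subtelomeric member in any library. The annotation named 8 *YRF1* genes, all inside telomeric regions. Places with a peak in all 8 libraries also lay 783 bp upstream of *YRF1-1* and 887 bp upstream of *YRF1-5*, beyond the 500 bp of the promoter. Others lay upstream of *YRF1-8* (summit at 1084706, coding start at 1085473 on chromosome XV) and *YRF1-2* (570318 and 571480 on chromosome V). These too lay beyond the 500 bp, and a small reading frame, *YOR394C-A* or *YER188C-A*, had the nearer coding start. A promoter peak was found at 3 of the 8 genes, each time in all 8 libraries. Of all genes, 31% had a promoter peak in at least 1 library and 4.08% in all 8. None was found at the 19 subtelomeric *PAU* genes, the 11 *COS* genes, the 7 maltose and isomaltose genes (*MAL* and *IMA*), the 5 aryl alcohol dehydrogenases (*AAD*), the 5 vitamin B6 genes (*SNZ* and *SNO*), the 4 hexose transporters (*HXT*), the 4 thiamine pyrimidine genes of the *THI5* family, the 2 siderophore iron genes (*ARN* and *FIT*) or the 2 acid phosphatases (*PHO*). Families of 2 to 5 genes are too small to read against the 31%. Beyond the zone, at least 1 library had one for 5 of 12 *HXT* genes, 3 of 8 siderophore iron genes, 1 of 4 *MAL* and *IMA* genes and the single *COS* gene, and none had one for the 5 *PAU* genes, the 5 flocculin genes (*FLO*), the 2 *SNZ* and *SNO* genes or the 2 *PHO* genes. The silent mating locus *HML* (chrIII:11146-14849), 11.1 kb from the left end of chromosome III, overlapped no peak in any library, and the nearest summit lay 2238 bp away. Of its bases, 33.9% started a unique 36-mer. *HMR* (chrIII:292388-295034) began beyond the 20 kb and overlapped none either, with the nearest summit at 480 bp. The *MAT* locus of the reference, annotated with its alpha form (chrIII:198671-201177), 115444 bp from an end, overlapped no peak in any library either. Only 5.03% of its bases started a unique 36-mer. A peak could thus hardly be placed there, and it cannot serve as a comparison for the silent loci.

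Protein-coding genes held 19.4 ± 5.43% of subtelomeric and 18.29 ± 0.98% of interior summits (SD, n = 8). The difference of 1.11 ± 6.14 percentage points was above 0 in 4 of 8 libraries (exact sign-flip p = 0.672). Where −log10 q reached 5 it was -8.67 and where it reached 10 it was -17.8 (exact p = 0.00781 in both). In the rest of the zone, outside the telomeric regions, 28.9% of 76 summits lay in such genes, which covered 44.2% of it, while genes covered 74.2% of the interior. Subtelomeric summits lay in an annotated replication origin in 39 of 546 cases (7.14%), against 1.01% of interior summits, and 38 of these were in telomeric regions. The length of each zone covered by annotated origins was not measured, so no preference for origins can be read from these shares.

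Outside the telomeric regions only 25 places held a peak, and 4 of these had one in all 8 libraries. The strongest of these 4 lay on the right arm of chromosome XIII (chrXIII:914863-915725), 9.05 kb from the end and 849 bp upstream of the coding start of *FET4*, which encodes a low-affinity transporter of iron and other metals. It had fold enrichments of 4.68, 4.84, 3.70 and 4.16 in the episomal libraries and 4.21, 5.19, 3.90 and 4.15 in the integrated ones, with full overlap. The second was inside the Ty1 frames *YHR214C-B* and *YHR214C-C* on chromosome VIII (chrVIII:548532-549376), with a mean of 4.18 ± 0.29 (SD, n = 8) and 8.17% unique 36-mers. The third lay on the left arm of chromosome XIII, between *MSC1* and *COX14*, a gene for assembly of cytochrome c oxidase. It had 2.56, 2.78, 3.55 and 3.66 in the episomal libraries and 3.11, 3.68, 4.03 and 3.29 in the integrated ones, again overlapping, with a mean of 3.33. The last, with a mean of 3.05, crossed the 20 kb limit in the reading frame *YPR195C* on chromosome XVI (chrXVI:927686-928345), where 4 of the 8 summits counted as members.
The window of 151 bases at the summit of the place at *FET4* (chrXIII:915312-915462), plus strand, is printed because it is the strongest of these and lies in unique sequence, with TATAAA in capitals.
FET4: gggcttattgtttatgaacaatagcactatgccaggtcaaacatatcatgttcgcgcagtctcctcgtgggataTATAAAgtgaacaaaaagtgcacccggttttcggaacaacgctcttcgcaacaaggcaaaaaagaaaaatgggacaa

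None of the remaining 21 places had a peak in every library, and 8 had one in 1 library only. Their mean fold enrichment over the libraries with a peak was 2.49 to 3.99, and the highest, at *RMD6*, *VAC17* and *FLO1* (3.99, 3.80 and 3.56), were above that at *COX14*. A place 19.1 kb from the right end of chromosome I (chrI:210972-211426), beyond *FLO1*, a gene for a cell wall flocculin, had a peak in 6 libraries, and one upstream of *YPR196W*, a maltose activator homolog, in 5 (chrXVI:930442-931112). Places 305 bp upstream of *RMD6* and 210 bp upstream of *ERO1*, the thiol oxidase of the endoplasmic reticulum, had one in 4. At the limit of the zone, the 5 innermost members lay 19899 to 19960 bp from an end with fold enrichments of 2.47 to 3.90, and the 5 nearest peaks beyond it lay 20036 to 20269 bp away with 2.67 to 3.68.

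Episomal and integrated strains were compared for the share of nuclear peaks that were subtelomeric. The episomal libraries held 70, 60, 58 and 63 subtelomeric peaks, or 6.72%, 5.95%, 5.79% and 6.38% of their peaks, and the integrated ones 77, 74, 74 and 70, or 6.00%, 6.32%, 6.90% and 7.05%. The means were 6.21 ± 0.42% and 6.57 ± 0.49% (SD, n = 4 each), and the difference of -0.36 percentage points was not beyond the spread of the libraries (exact permutation p = 0.314, adjusted p = 0.404). Where −log10 q reached 10, its direction turned, with a difference of 4.52 (exact permutation p = 0.114). *HPRT1R* strains averaged 6.25 ± 0.36% and *HPRT1* strains 6.53 ± 0.57%, a difference of -0.28 percentage points (exact permutation p = 0.400, adjusted p = 0.450). Neither p shows that the groups were alike. Counted as peaks in place of shares, episomal libraries had 11 fewer on average than integrated ones (exact permutation p = 0.0571), with 70 reached in both groups, and *HPRT1R* libraries 4 more than *HPRT1* libraries (exact permutation p = 0.514). None of the other 7 measures differed by context or locus at p below 0.05 either. The lowest exact permutation p of these 14 comparisons was 0.0571 (adjusted 0.56), for the promoter difference, at -9.66 ± 1.504 percentage points in *HPRT1R* and -7.80 ± 0.73 in *HPRT1* libraries (SD, n = 4 each).

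No subtelomeric region had peaks in all 4 libraries of one context and none of the other, against 0.38% of all nuclear regions. Among the 44 regions present in all 8 libraries, 5 had integrated fold enrichments that all exceeded the episomal ones (11.4%), against 8% of all such nuclear regions, and none the reverse, against 0.2%. The 5 were the terminal places of XVR, XIIIL, IVL and XVL and the place in *YPR195C*. Nearest to being seen in a single context, and named after their values were seen, were a place between *CHA1*, the serine and threonine deaminase, and *VAC17* on chromosome III (chrIII:17034-17234), with 4.52, 4.02 and 2.86 in 3 integrated libraries and no peak in the episomal ones, and one 867 bp upstream of *IRC7* on chromosome VI, likewise in 3 integrated libraries. The same held for a Y′ place inside *YRF1-6* (chrXIV:3285-3542), with 2.99, 2.18 and 3.15 and 0% unique 36-mers. A place in the Y′ element of XVIR (chrXVI:944119-944746), 116 bp upstream of *YPR204W*, had 3.03 in 1 episomal library and 2.80, 3.30, 3.38 and 3.14 in the integrated ones. No other subtelomeric region had peaks in all 4 integrated libraries and at most 1 episomal one, a pattern of 0.978% of all nuclear regions.

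Clones of a strain shared more of their called bases near the ends than in the interior. The Jaccard index, shared over combined bases, was 0.626 to 0.664 in the subtelomere and 0.472 to 0.539 in the interior over the 4 strains, in this order in all 4 strains and without a test. It was 0.772 to 0.876 in X-only telomeric regions and 0.261 to 0.392 in the rest of the zone. Subtelomeric peaks were also wider, stronger and mostly in repeated sequence, and the part of these traits in the index was not tested.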

How the data were processed

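The 8 libraries were ATAC-seq. The authors aligned 36-bp read pairs with Bowtie2 2.2.9 to sacCer3 with the locus and vector added, and called peaks per library with MACS2 2.1.0, keeping duplicates and without a control. Each row of the deposited lists holds a summit ratio over background (fold enrichment), a −log10 p-value and a −log10 q-value, all set by the authors' caller against the background of the same library, and an integer score derived from q. No filter on mapping quality or shift to the cut site is stated, and how reads from repeats were placed is not given in the sources used here. Depth is given only through the recovered fragment counts.

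Summits were taken as peak start plus offset. Annotation and sequence came from RefSeq R64, whose chromosome lengths equal sacCer3. Densities were peaks over length of the zone. Per-library values were compared by exact two-sided sign-flip tests over 8 libraries, and groups by exact permutation of labels (70 arrangements, smallest p 0.0286). Y′ summits were placed with BLAST 2.17.0. Scripts used Python 3.11.15, pandas 2.3.3 and SciPy 1.17.1, and the tests were tried on simulated data. Places named were the 10 strongest with a peak in all 8 libraries, any seen in a single context, those within 3 kb of an end in at least 4 libraries and the 5 peaks on either side of the limit, and ends were the 3 richest and the poorest. Members and lists were chosen with earlier results of these data known. Alternatives were stricter q, equal list sizes, other zones, promoters and reference zones, length in unique 36-mers, leaving out each clone and permutation within clone numbers. Peaks of the locus, vector, mitochondrion and 2-micron plasmid were left out.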

Additional observations from a re-analysis of the deposited data

How the results depend on the processing

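Of 147 alternative values, 131 kept the direction and the side of the threshold of the value in the text. With a −log10 q of at least 5 or 10, the log2 density ratio was 0.61 and 1.79, the locus difference in subtelomeric share -1.37 and -3.71, the context difference in subtelomeric share became 0.895 and 4.52 percentage points and the difference in summits inside genes -8.67 and -17.8. The promoter difference was -4.36 and 0.525, and at 10 the log2 width ratio was 0.045. With a narrower promoter around the coding start the difference was -1.15. With equal list sizes the difference in summits inside genes was -1.21, and with a 30 kb zone -1.36, while the log2 density ratio was then -0.0038. Without the telomeric regions, chosen after seeing the data, the log2 ratios of density, fold enrichment and width were -2.24, -0.10 and -0.15 and the difference in summits inside genes was 10.6. With the length in unique 36-mers the log2 ratios of density, outer to inner zone and Y′ ends were 1.10, 3.36 and 2.01, but with peaks and bases in unique 36-mers alone, also added, the density ratio was -0.83. With 20 to 40 kb as the reference zone it was 1.14. Counted as peaks, the context difference was -11 (exact permutation p = 0.0571) and the locus difference 4. The causes were not tested.

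Leaving out 1 clone in turn gave log2 density ratios of 0.26 to 0.30, fold enrichment ratios of 0.29 to 0.31, width ratios of 0.40 to 0.46, outer to inner ratios of 2.45 to 2.55 and Y′ ratios of 1.22 to 1.25. The promoter difference was -8.96 to -8.30, the difference in summits inside genes -0.57 (without integrated *HPRT1R* clone 1) to 2.34, and the differences in share -0.55 to -0.20 by context and -0.53 to -0.11 by locus. With the replicate number as a block, the context difference of -0.36 had an exact p of 0.333 and the locus difference of -0.28 one of 0.444, and 36 arrangements cannot go below 0.0556. Clones with the same number share only a number, and their deviations in peaks per end correlated at -0.74 to 0.41 over 6 pairs of strains. Regions present in all 8 libraries numbered 44, and 35 to 38 under the alternatives. A library with more fragments gives the caller more power, which limits comparisons of peak numbers between libraries.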
